A study of Mus musculus with 797 samples.

Results

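Lhx6, Sox6, Satb1, Adarb2, Nr2f2 and Prox1 are 6 genes used to tell apart forebrain GABAergic interneurons that arise in the medial ganglionic eminence (MGE) from those that arise in the caudal ganglionic eminence (CGE). They were taken by name from a table of 32285 gene rows, each symbol matching 1 row, and were followed in single nuclei of mouse brain. The study sorted nuclei that expressed a yellow fluorescent reporter from an adeno-associated virus (AAV) and sequenced each nucleus as its own full-length cDNA library (SMART-Seq v4). The 797 nuclei carry 20 vector labels with 39 or 40 nuclei each. All came from C57Bl/6J mice given the vector in the PHP.eB capsid, which crosses from blood into brain in this strain, at 5e11 vector genomes per mouse in young adulthood, and nuclei were taken 3 to 4 weeks later. In every group the reporter was a fluorescent protein fused to histone H2B, and there were no uninjected animals. The 16 AiE labels are enhancer elements: AiE0078h, AiE0140h, AiE0387m, AiE0390m, AiE0391h, AiE0401h, AiE0410m, AiE0445h_3xC2, AiE0447h, AiE0450h, AiE0452h, AiE0475m, AiE0600m, AiE0682h, AiE0743m_3xC2 and AiE0779m. The other 4 are CMV, a viral promoter, hSyn1, the human synapsin promoter, and hI56i and DLX2.0, elements of Dlx genes that drive expression in forebrain GABAergic neurons.

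In the embryo, MGE progenitors give rise to the Pvalb and Sst interneurons of cortex and striatum, and CGE progenitors to the Vip and most Lamp5 and Reln interneurons of cortex. Lhx6, a LIM homeodomain factor, is switched on as cells leave the MGE and is needed for their migration and for Sst and Pvalb expression. Sox6, an SRY-box factor, and Satb1, a chromatin organiser, act after Lhx6 in the maturation of these cells. Nr2f2 (COUP-TFII), an orphan nuclear receptor, and Prox1, a homeodomain factor, are used by CGE-derived cells, and Adarb2, a member of the family of RNA-editing adenosine deaminases, marks CGE-derived interneurons of the adult cortex.

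A nucleus was kept with at least 50000 gene reads and 1000 detected genes, which left 781 of 797. A gene was called detected at a CPM (reads scaled to a total of 1e+06 gene reads per nucleus) of at least 10. Nuclei with Gad1 plus Gad2 at that level and Slc17a7, the cortical vesicular glutamate transporter, below it are called GABAergic (310 nuclei, 39.7%), and nuclei with the reverse are called Slc17a7 nuclei (385). GABAergic nuclei were split by Pvalb, Sst and Vip into 122 Pvalb-only, 83 Sst-only, 15 Vip-only, 42 with several of the 3 markers and 48 with none, called marker-negative. None of the 6 genes was used to define a class. Depth over kept nuclei was 292895 gene reads at the median and ranged from 50565 to 666436, and no 2 nuclei had identical counts. The median was 318172 in GABAergic and 279379 in Slc17a7 nuclei, and lay between 309326 and 339839 in the 4 single-marker and marker-negative classes. No animal is named, so the nuclei of 1 vector label are 1 sample: vectors are described without a test, and classes were compared over labels. P-values therefore measure how far a class difference varies from label to label, a spread that may be technical.

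All nuclei are labelled striatum, while the series' design text names cortical regions besides the striatum. Markers of spiny projection neurons, the principal striatal cells, were mostly absent from GABAergic nuclei: Adora2a, Ppp1r1b and Isl1 were detected in 0 of 310, Drd2 in 1.29% and Drd1 in 7.10%. Slc17a7 nuclei carried Neurod6 in 46.5% and Tbr1 in 31.7%, genes of cortical excitatory neurons. The nuclei are therefore called labelled striatum only. The library names fall into 3 sets by prefix, here A (219 GABAergic nuclei), B (58) and C (33). Set B had more reads from mitochondrial genes, with means of 1.24% of reads in its GABAergic nuclei against 0.0162% in set A and 0.0172% in set C. The medians were 0.0326% in set B and 0 in sets A and C, so part of the set B nuclei carried its mean. Within set B the median was 0.000647% in Pvalb-only and 1.45% in Sst-only nuclei.

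The loci of the 6 genes lie on 5 chromosomes of mm10 (GENCODE M21): Lhx6 at chr2:36081953-36105408 (minus strand), Sox6 at chr7:115470872-116038796 (minus), Satb1 at chr17:51736187-51833290 (minus), Adarb2 at chr13:8202866-8768747 (plus), Nr2f2 at chr7:70351944-70366735 (minus) and Prox1 at chr1:190118035-190170714 (minus). The 250 bases upstream of the annotated start are shown for Lhx6, Adarb2 and Prox1, 3 of the genes whose reads were absent or rare in at least 1 class: Lhx6 in Slc17a7 nuclei, Adarb2 in Sst-only nuclei and Prox1 in Pvalb-only nuclei (RefSeq, GRCm38.p6, 5′ to 3′ on the strand of the gene). The windows are chr2:36105409-36105658 for Lhx6, chr13:8202616-8202865 for Adarb2 and chr1:190170828-190171077 for Prox1. Capitals mark any match on either strand to the nuclear receptor motif AGGTCA, the homeodomain core motif TAATTA, the Sp-type motif GGGCGG or the TATA box motif TATAAA.
Lhx6: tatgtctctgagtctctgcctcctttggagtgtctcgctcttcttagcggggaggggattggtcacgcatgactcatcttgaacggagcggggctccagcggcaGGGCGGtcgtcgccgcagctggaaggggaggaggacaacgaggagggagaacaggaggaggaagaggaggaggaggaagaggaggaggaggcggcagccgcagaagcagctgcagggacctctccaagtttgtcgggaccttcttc
Adarb2: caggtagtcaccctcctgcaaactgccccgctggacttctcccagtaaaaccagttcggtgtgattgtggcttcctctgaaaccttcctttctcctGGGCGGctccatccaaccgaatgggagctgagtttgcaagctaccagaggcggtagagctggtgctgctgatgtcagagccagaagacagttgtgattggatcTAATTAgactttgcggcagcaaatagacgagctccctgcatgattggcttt
Prox1: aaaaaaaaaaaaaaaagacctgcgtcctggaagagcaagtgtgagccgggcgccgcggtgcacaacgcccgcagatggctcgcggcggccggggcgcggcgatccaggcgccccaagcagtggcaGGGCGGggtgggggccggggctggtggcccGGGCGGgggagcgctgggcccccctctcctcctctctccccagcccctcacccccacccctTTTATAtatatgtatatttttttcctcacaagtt
Lhx6 held 1 Sp-type motif, Adarb2 an Sp-type motif and a homeodomain core, and Prox1 a pair of Sp-type motifs and a TATA box on the opposite strand, with no overlap between matches. The upstream windows of Sox6, Satb1 and Nr2f2 held none of the 4 motifs. Among 27025 RefSeq promoters of the same length, AGGTCA was present in 13.8%, TAATTA in 4.91%, GGGCGG in 33% and TATAAA in 13%. ACAAT and CANNTG were also searched and are not marked: they occur in 28.2% and 66.1% of these promoters. The matches are descriptions of these windows, and no binding or chromatin data were used.

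The first comparison asked how far the 6 genes separate GABAergic from Slc17a7 nuclei. Lhx6, Sox6 and Adarb2 were higher in GABAergic nuclei, and Satb1 was read in both classes. Lhx6 was detected in 30.6% of GABAergic nuclei (95 of 310, exact Clopper-Pearson 95% interval 25.6 to 36.1) and had no read in any of 385 Slc17a7 nuclei, where 3 nuclei of 385, the limit taken for a count of 0, are 0.779% (exact upper bound 0.954%). Sox6 was detected in 62.3% of GABAergic nuclei (56.6 to 67.7) and in 1 Slc17a7 nucleus (0.260%). Adarb2 was detected in 17.1% (13.1 to 21.8) against 1.82% (0.734 to 3.71). Nr2f2 was detected in 6.45% (3.99 to 9.79) against 0.519%, and Prox1 in 5.81% (3.48 to 9.02) against 0 of 385 nuclei, with the same limit. Satb1 was detected in 57.7% (52.0 to 63.3) of GABAergic and 43.1% (38.1 to 48.2) of Slc17a7 nuclei. Intervals and limits cover counting error only. With every nucleus thinned to 50000 reads the GABAergic shares were 28.7% for Lhx6, 60.3% for Sox6, 57.4% for Satb1, 17.1% for Adarb2, 5.48% for Nr2f2 and 5.81% for Prox1.

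**Figure D1:**
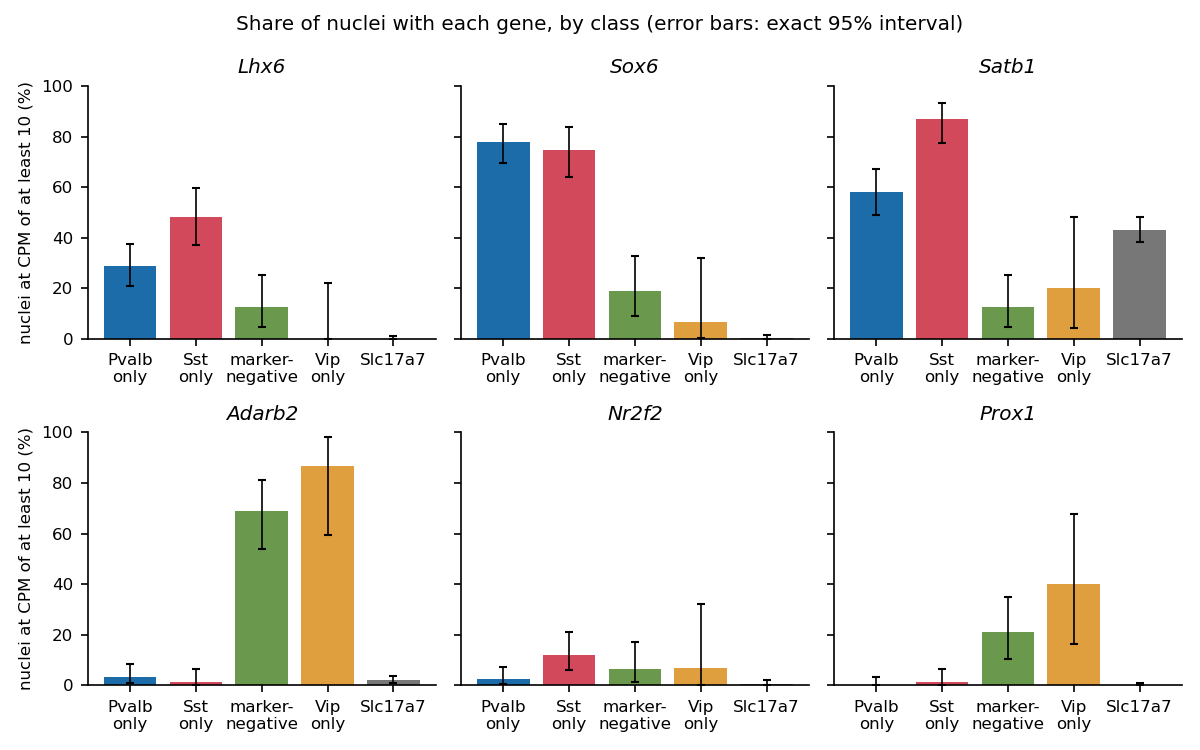
Share of nuclei (percent) in which each of the 6 genes was detected at a CPM of at least 10, by class, with exact 95% intervals that cover counting error only. Lhx6, Sox6 and Satb1 are high in Pvalb-only and Sst-only nuclei, Adarb2 is at 86.7% in Vip-only and 68.8% in marker-negative nuclei, and Satb1 is also present in Slc17a7 nuclei (43.1%).

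Counts were summed per vector label and class, giving 16 GABAergic and 20 Slc17a7 sums of at least 2 nuclei. Summed Lhx6 was 0, 75.7 and 294 CPM at the lowest, median and highest GABAergic sum, and 0 in all 20 Slc17a7 sums. One GABAergic sum was at 0, so the groups touched there. Over all nuclei, Lhx6 stood at 91.9 CPM in GABAergic nuclei, 3345 times a floor of 3 reads over the Slc17a7 class. That ratio pools reads and does not cover the spread between nuclei. Summed Sox6 was 0, 122 and 278 CPM in GABAergic sums, and 19 of 20 Slc17a7 sums were at 0, the other at 5.98 CPM. Summed Adarb2 was 0, 229 and 3623 CPM in GABAergic sums and 0, 0 and 305 CPM in Slc17a7 sums, so the groups overlapped. Satb1 overlapped widely, with 0, 243 and 1095 CPM against 0, 157 and 432 CPM.

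With edgeR's quasi-likelihood test and vector label as a block, 1530 of 11343 genes differed (13.5 percent; 773 higher, or 6.81 percent, and 757 lower in GABAergic nuclei). Of the 6 members 3 were called higher, 1 was not called and 2 did not pass the filter on low counts. Sox6 was higher by 7.54 ± 0.74 (log2, SE; edgeR adjusted p = 5.32e-11), Adarb2 by 6.28 ± 0.68 (edgeR adjusted p = 1.75e-10), and Lhx6 passed with an edgeR adjusted p of 8.86e-09. The fitted fold change of Lhx6 is not given because all Slc17a7 sums were at 0. Sox6 was at 0 in 19 of 20 Slc17a7 sums. Both genes passed the filter through their GABAergic sums, so their p-values are no support separate from the shares above. Satb1 had a log2 difference of 0.78 ± 0.37 (edgeR adjusted p = 0.181). It was called with no label block (adjusted p = 0.0135) and with sums per label and library set (1.75, adjusted p = 0.0131), and adjusted p ran from 0.0131 to 0.919 over all alternatives. Without the filter, Nr2f2 and Prox1 were called by edgeR, with adjusted p of 1.08e-06 and 0.000112. Prox1 was at 0 in all 20 Slc17a7 sums and Nr2f2 in 18 of them. These calls therefore restate which class had reads and are no separate support. The mean level per label, log2(CPM+1), tested by exact two-sided sign permutation over 16 labels, was a second test. Lhx6 was higher in 15 of 16 labels and tied in the other (mean difference 2.68, exact p = 6.1e-05, Benjamini-Hochberg 0.00128 over 42 tests), and Satb1 in 11 of 16 (1.35, exact p = 0.0836, adjusted 0.234).

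The general GABAergic list, which includes genes of GABA synthesis and Dlx factors, had 11 of 11 members called higher, with Erbb4, a neuregulin receptor, at 8.41 ± 0.60. Gad1 and Gad2 in that list defined the class. All gene lists here were chosen with earlier results of these data known, so their counts and medians are descriptions only. Of 12 MGE-linked genes 7 passed the filter and 5 were called higher, among them Maf (6.85 ± 0.58), a leucine zipper factor, and Nxph1 (6.21 ± 0.61), a neurexin ligand. Their median log2 difference was 2.52, against 0.16 over all genes tested. Of 13 CGE-linked genes 6 passed, and 2 were called in each direction: Npas3 (5.32) and the cannabinoid receptor gene Cnr1 (1.52) higher, Nfix (−2.28) and Id2 (−1.76) lower. The median of that list was −0.58. Of 11 relatives of the members 8 passed and 2 were called, both lower, among them Lhx2, a LIM homeodomain relative of Lhx6, with a log2 difference of −3.89 ± 0.91. Nr2f1, the paralog of Nr2f2, was detected in 36.5% of GABAergic and 46.0% of Slc17a7 nuclei, and Adarb1, the active editing relative of Adarb2, in 38.7% and 30.9%.

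Within GABAergic nuclei the MGE factors were read in Pvalb-only and Sst-only nuclei. Lhx6 was detected in 28.7% of Pvalb-only nuclei (20.9 to 37.6), 48.2% of Sst-only (37.1 to 59.4), 12.5% of marker-negative (4.73 to 25.2) and 0 of 15 Vip-only nuclei (0 to 21.8). Sox6 was detected in 77.9% (69.5 to 84.9), 74.7% (64.0 to 83.6), 18.8% (8.95 to 32.6) and 6.67% of these classes. Satb1 was detected in 58.2% (48.9 to 67.1), 86.7% (77.5 to 93.2), 12.5% and 20%. In both Pvalb-only and Sst-only nuclei Lhx6 had the lowest share of the 3. Where it was detected, the median level of Lhx6 was 7.64 log2(CPM+1) in Pvalb-only and 7.72 in Sst-only nuclei. Over pooled nuclei the classes differed in the share of nuclei with reads rather than in that level. Over labels, mean Lhx6 was lower in Pvalb-only nuclei in 8 of 13 and higher in 5 (exact two-sided sign permutation p = 0.388). Set B gave 21 of the 122 Pvalb-only and 22 of the 83 Sst-only nuclei.

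The CGE factors Adarb2 and Prox1 had the reverse order. Adarb2 was detected in 86.7% of Vip-only (13 of 15, 59.5 to 98.3) and 68.8% of marker-negative nuclei (33 of 48, 53.7 to 81.3), in 3.28% of Pvalb-only and in 1.20% of Sst-only nuclei. Prox1 was detected in 40% of Vip-only (16.3 to 67.7) and 20.8% of marker-negative nuclei (10.5 to 35), in 1 Sst-only nucleus (1.20%) and in 0 of 122 Pvalb-only nuclei, where 3 nuclei, the limit taken for a count of 0, are 2.46% (exact upper bound 2.98%). Nr2f2 did not keep to these classes. Its share was 12% in Sst-only (5.93 to 21), 6.67% in Vip-only, 6.25% in marker-negative and 2.46% in Pvalb-only nuclei, with overlapping intervals. Of its 20 nuclei, 10 were Sst-only.

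**Figure D2:**
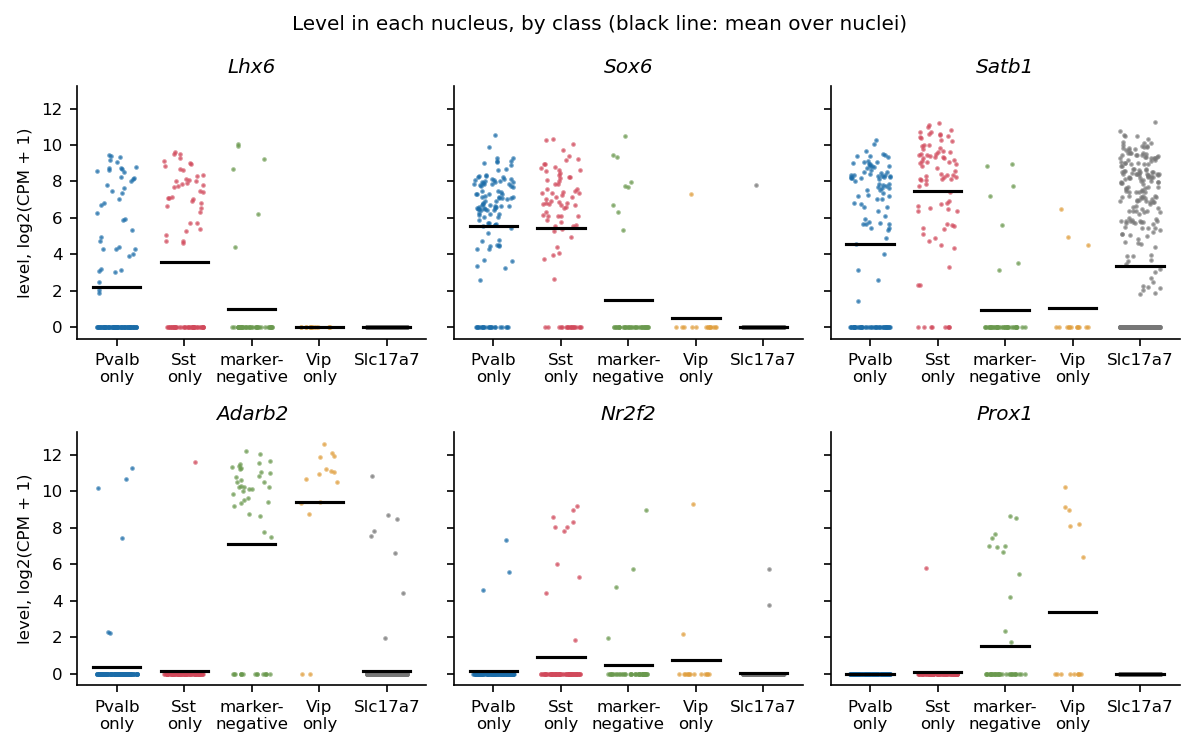
Level of each gene in each nucleus, log2(CPM+1), by class; each point is 1 nucleus and the black line is the mean over nuclei. Satb1 averages 4.56 in Pvalb-only, 7.45 in Sst-only and 3.38 in Slc17a7 nuclei, and Adarb2 averages 9.45 in Vip-only and 7.10 in marker-negative nuclei.

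Pvalb-only and Sst-only nuclei, the main MGE-derived types, were compared directly. In 14 sums each, Satb1 was 68.4, 187 and 318 CPM (lowest, median, highest) in Pvalb-only and 162, 462 and 1095 CPM in Sst-only nuclei. The ranges overlapped between 162 and 318 CPM. Summed Lhx6 was 0.270, 61.5 and 280 CPM against 0, 103 and 294 CPM, and summed Sox6 46.1, 148 and 251 CPM against 29.1, 134 and 580 CPM. The edgeR test called 510 of 18037 genes (2.83 percent; 314 higher, 1.74 percent, and 196 lower, 1.09 percent, in Pvalb-only nuclei) and none of the 6 members. The number tested depends on Vip-only nuclei, which gave 1 sum, so that enough reads in 1 sum passed the filter. Without AiE0450h, the label of that sum, 456 of 12316 genes were called. The split was 215 higher and 255 lower with RLE size factors and 245 and 235 with library totals. At an unadjusted p under 0.05 edgeR gave Satb1 and Adarb2 (p = 0.0103 and 0.0179). Satb1 had a log2 difference of −1.27 ± 0.49 (edgeR adjusted p = 0.172). With RLE size factors it was −1.61 (adjusted p = 0.0375), and with no label block −1.44 (adjusted p = 0.0495). Its mean level per label was lower in Pvalb-only nuclei in 13 of 13 labels, by 3.03 on the log2 scale (exact two-sided sign permutation p = 0.000244, the smallest possible, Benjamini-Hochberg 0.00205). Within set A it was lower in 11 of 11 labels and within set B in 2 of 2. Lhx6 differed by −0.38 ± 0.80 (edgeR adjusted p = 0.953) and Sox6 by 0.39 ± 0.61 (edgeR adjusted p = 0.891).

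Adarb2 differed by 2.78 ± 1.17 between Pvalb-only and Sst-only nuclei (edgeR adjusted p = 0.235). It rested on few nuclei, with 10 of 14 Pvalb-only and 13 of 14 Sst-only sums at 0, the other Sst-only sum being AiE0450h. Without that label the edgeR adjusted p was 0.00435, and with DESeq2 it was 0.00237. Nr2f2 differed by −2.57 ± 1.40 (edgeR adjusted p = 0.458), with its highest Sst-only sum, 194 CPM, in hSyn1. Among the lists, the relative Sox5 was higher in Pvalb-only nuclei (4.66 ± 0.84, edgeR adjusted p = 2.67e-05) and detected in 43.4% against 4.82%, while Sox6 did not separate these classes. Of the MGE-linked genes 1 of 8 tested was called, Mef2c (1.44 ± 0.29), an activity-dependent factor. Of the CGE-linked genes 5 of 12 were called, Nfib higher (3.64 ± 0.82) and Npas3 (−3.03), Cnr1 (−2.61), Npas1 and Calb2 lower. The lists' medians were 0.20 and −0.14, against 0.34 over all genes.

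Marker-negative nuclei were set beside Pvalb-only and Sst-only nuclei; the comparisons share the 12 marker-negative sums. Adarb2 was higher and Satb1 lower in marker-negative nuclei in both. Summed Adarb2 was 0, 978 and 2208 CPM in marker-negative sums, with 1 sum at 0, AiE0475m. Against Pvalb-only sums of 0, 0 and 168 CPM its log2 difference was 5.34 ± 0.84 (edgeR adjusted p = 1.89e-06). Against Sst-only sums of 0, 0 and 182 CPM it was 8.12 ± 1.07 (edgeR adjusted p = 1.73e-09). Without AiE0450h all Sst-only sums were at 0 and the call stood. Summed Satb1 was 0, 0 and 157 CPM in marker-negative nuclei, with 7 of 12 sums at 0. Its log2 difference was −3.41 ± 0.61 from Pvalb-only nuclei (edgeR adjusted p = 9.53e-05) and −4.67 ± 0.64 from Sst-only nuclei (edgeR adjusted p = 7.26e-09).

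These comparisons called 577 genes against Pvalb-only nuclei (3.2 percent; 107 higher, 0.593 percent, and 470 lower, 2.61 percent) and 384 against Sst-only nuclei (2.13 percent; 122 higher, 0.676 percent, and 262 lower, 1.45 percent). Without AiE0450h, 461 and 368 of 12316 genes were called. The splits depended on scaling. They were 139 higher and 164 lower with RLE size factors and 133 and 182 with library totals against Pvalb-only nuclei, and 150 and 202 with library totals against Sst-only nuclei. The median over all genes in the first comparison was −0.66, and −0.29 with RLE size factors. Adarb2 and Satb1 kept their direction and stayed called under both scalings.

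Sox6 was 0, 44.1 and 357 CPM in marker-negative sums, a range that overlapped the other classes. Its log2 difference was −2.08 ± 0.68 against Pvalb-only (edgeR adjusted p = 0.0664) and −1.69 ± 0.68 against Sst-only nuclei (edgeR adjusted p = 0.215). Against Pvalb-only nuclei it was called with DESeq2 (adjusted p = 0.0187) and without AiE0682h (edgeR adjusted p = 0.0428). By mean level per label it was lower in 12 of 12 labels against Pvalb-only (−4.04, exact permutation p = 0.000488, the smallest possible, adjusted 0.00293) and in 11 of 11 against Sst-only nuclei (−3.50, exact permutation p = 0.000977, adjusted 0.00373). Lhx6 differed by −1.02 ± 0.96 and −1.39 ± 1.0 (edgeR adjusted p = 0.668 and 0.631). Its marker-negative sums were 0, 0 and 719 CPM, with 7 of 12 at 0, so 1 sum with a high value stood beside many without reads.

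Prox1 was at 0 in all 14 Pvalb-only sums and in 13 of 14 Sst-only sums, and at 0, 12.9 and 106 CPM in marker-negative sums. Over all nuclei Prox1 stood in marker-negative nuclei at 388 times a floor of 3 reads over the Pvalb-only class, by pooled reads only. It was called against Pvalb-only nuclei (edgeR adjusted p = 0.0139), and not with DESeq2 (adjusted p = 0.304), with at least 4 nuclei per sum (0.0859), without set B (0.0840) or in set A alone (0.249). Prox1 passed the filter on low counts only through classes other than Pvalb-only. That call is therefore no support separate from its absence in Pvalb-only nuclei. Without AiE0450h, the label of the lone Vip-only sum, Prox1 did not pass the filter. Against Sst-only nuclei its log2 difference was 5.86 ± 1.87 (edgeR adjusted p = 0.0728; 0.00549 with no label block and 0.00509 with at least 1 nucleus per sum). Nr2f2 was not called in either comparison (edgeR adjusted p = 0.547 and 0.195).

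Of 12 CGE-linked genes tested, 6 were called higher and 0 lower against Pvalb-only nuclei. They were the HLH inhibitor Id2 (3.53 ± 0.67), Egfr (6.59 ± 1.33), Nfib (2.93 ± 0.64), Cnr1 (2.44 ± 0.71), the serotonin receptor gene Htr3a and Npas1. Against Sst-only nuclei 4 were higher, with Nfib at 6.57 ± 0.83 and Id2 at 4.44 ± 0.76, and Calb2 was lower. The list's medians were 2.69 and 1.93, while those over all genes were −0.66 and −0.29. They describe a list chosen with earlier results of these data known. Of 8 MGE-linked genes 1 was called lower against Pvalb-only nuclei, Ppargc1a, a mitochondrial coactivator (−3.24 ± 0.81), and 0 against Sst-only nuclei by edgeR.

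The 48 marker-negative nuclei were then divided by Adarb2, a split chosen after the data were seen. All 33 with Adarb2 also had Npy, 28 had Lamp5 and 18 had Reln, while Sox6 and Satb1 were detected in 0 of 33 and Lhx6 in 1. Prox1 was detected in 10 of them. Of the 15 without Adarb2, 9 had Sox6, 6 had Satb1, 5 had Lhx6 and 4 had Pthlh, and Lamp5 and Prox1 were each detected in 0. A similar split of the 83 Sst-only nuclei by Npy, also chosen afterwards, gave Lhx6 in 61.5% of the 52 with Npy (47.0 to 74.7) and 25.8% of the 31 without (11.9 to 44.6). Sox6 was in 45 of 52 and 17 of 31, Satb1 in 44 of 52 and 28 of 31, and Nr2f2 in 3 of 52 and 7 of 31. The 5 Sst-only nuclei with Nos1 all had Lhx6, Sox6 and Satb1.

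Vip-only nuclei were few: 15 in 11 labels, with 1 sum of at least 2 nuclei, the 5 nuclei of AiE0450h. That sum had Adarb2 at 2613, Prox1 at 383, Nr2f2 at 132 and Satb1 at 3.05 CPM, and Lhx6 and Sox6 at 0. The edgeR test assumes that this lone sum varies like the others. Against Pvalb-only nuclei it called 20 of 18037 genes (0.111 percent) and none of the 6 members, with unadjusted p under 0.05 for Sox6, Satb1, Nr2f2 and Prox1. Against Sst-only nuclei it called 9 genes (0.0499 percent; 1 higher, 0.00554 percent, and 8 lower, 0.0444 percent, in Sst-only nuclei), among them Adarb2 (−6.34 ± 1.37, edgeR adjusted p = 0.0186, lower in Sst-only nuclei). That call was lost with DESeq2 (0.793), at least 4 nuclei per sum (0.190), or sums per label and library set (0.169). Against marker-negative nuclei it called 48 genes (0.266 percent; 1 higher, 0.00554 percent, and 47 lower, 0.261 percent, in marker-negative nuclei), of which Nr2f2 was a member (edgeR adjusted p = 0.0477; 0.913 with at least 1 nucleus per sum).

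Allowing sums of 1 nucleus gave 11 Vip-only sums, of which 10 were 1 nucleus each, so the calls on them rest on single nuclei. Adarb2 was above 0 in 9 of the 11 labels, at 662 to 6244 CPM, and at 0 in AiE0387m and DLX2.0. The DLX2.0 nucleus had Sox6 at 155 CPM. Lhx6 was at 0 in all 11. On these sums edgeR called 4472 of 11814 genes between Pvalb-only and Vip-only nuclei (37.9 percent; 4351 higher, 36.8 percent, and 121 lower, 1.02 percent), and the median log2 difference over all these genes was itself 2.19 towards Pvalb-only nuclei. Satb1 was higher in Pvalb-only nuclei by 4.97 (edgeR adjusted p = 0.000175) and Sox6 by 4.62 (0.00213). Lhx6 was also called (0.00255), while Adarb2 differed by −5.43 (0.00027) and Prox1 was called lower (0.000396). Lhx6 had no read in Vip-only nuclei and Prox1 none in Pvalb-only nuclei, so the calls on Lhx6 and Prox1 are no separate support. Against Sst-only nuclei, with 2762 genes called (23.4 percent; 2680 higher, 22.7 percent, and 82 lower, 0.694 percent) and a median over all genes of 1.86, Adarb2 differed by −8.48 (edgeR adjusted p = 3.77e-06), Satb1 by 6.22 (7.2e-06) and Sox6 by 4.68 (0.00404), and Lhx6 and Prox1 were called (0.00147 and 0.00241). Nr2f2 was not called against Pvalb-only nuclei (0.782). Between marker-negative and Vip-only nuclei edgeR called 1408 genes (11.9 percent; 1319 higher, 11.2 percent, and 89 lower, 0.753 percent) and none of the 6 members. By reads pooled over all nuclei, Prox1 in Vip-only nuclei was 2640 times a floor of 3 reads over the Pvalb-only class. Lhx6 was 132 times such a floor over the Vip-only class in Pvalb-only nuclei and 230 times in Sst-only nuclei. These ratios do not cover the spread between nuclei. By nuclei, the interval of Lhx6 in Vip-only nuclei (0 to 21.8%) overlapped that in Pvalb-only nuclei (20.9 to 37.6%).

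Co-detection was counted over the 310 GABAergic nuclei, which are not replicates. Sox6 and Satb1 were found together in 135 nuclei, 69.9% of the 193 with Sox6 and 75.4% of the 179 with Satb1. Lhx6 and Sox6 were together in 78, which is 82.1% of nuclei with Lhx6 and 40.4% of those with Sox6, and Lhx6 and Satb1 in 64. All 3 were together in 54 nuclei, among them 28 of 83 Sst-only and 18 of 122 Pvalb-only nuclei. Adarb2 shared 17 nuclei with Prox1, 94.4% of the 18 with Prox1 and 32.1% of the 53 with Adarb2. Adarb2 shared 1 nucleus with Lhx6, 1 with Sox6 and 2 with Satb1. Prox1 shared 0 of its 18 nuclei with Lhx6 and 0 with Sox6, intervals that reach 18.5%, and 2 with Satb1. Nr2f2 was spread, sharing 10 of its 20 nuclei with Lhx6, 12 with Sox6, 13 with Satb1, 6 with Adarb2 and 2 with Prox1.

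**Figure D3:**
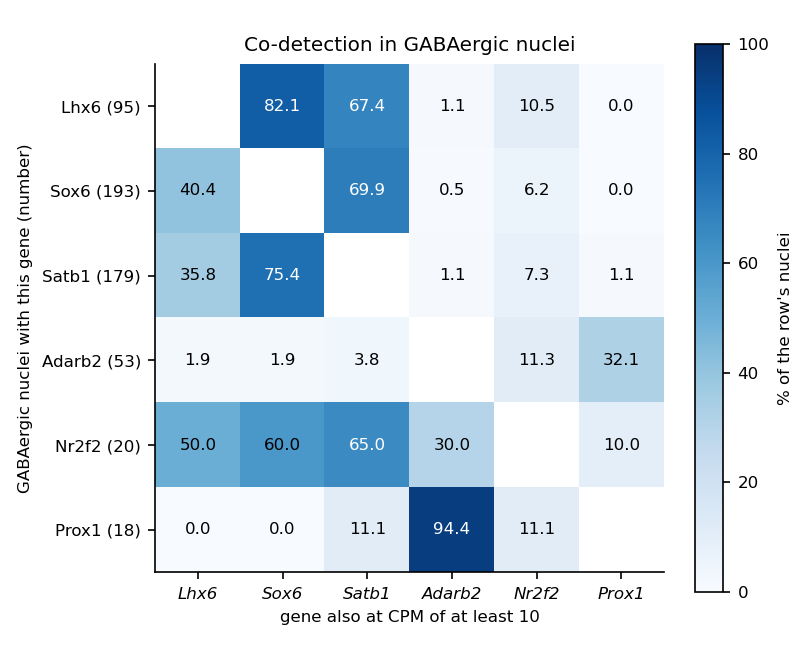
Co-detection in the 310 GABAergic nuclei: each row takes the nuclei with 1 gene (number beside its name), and each cell gives the percent of them in which the column's gene was also detected. Of nuclei with Prox1, 94.4% also have Adarb2, and of nuclei with Adarb2 1.89% have Lhx6 and 1.89% have Sox6.

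Grouping the genes as MGE factors (Lhx6, Sox6, Satb1) and CGE factors (Adarb2, Nr2f2, Prox1), 226 GABAergic nuclei had only MGE factors (72.9%), 50 only CGE factors (16.1%), 18 both (5.81%, 3.48 to 9.02) and 16 none of the 6 (5.16%). Of the 18 with both, 14 had Nr2f2, 10 were Sst-only and 9 came from set B; 4 had Adarb2 or Prox1. Of 385 Slc17a7 nuclei 214 had none of the 6, and 162 had only MGE factors. Satb1 was detected in 166 of these Slc17a7 nuclei, Sox6 in 1 and Lhx6 in 0. Across the 310 nuclei Pearson's r of log2(CPM+1), given as a description, was −0.55 for Sox6 with Adarb2, −0.50 for Satb1 with Adarb2, 0.51 for Adarb2 with Prox1, 0.29 for Sox6 with Satb1 and 0.24 for Lhx6 with Sox6. The points share library depth and class.

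Among genes detected in at least 10% of GABAergic nuclei, Kit, a receptor tyrosine kinase, was nearest to Adarb2 (r = 0.80, and 0.82 without set B), followed by Nfib (0.71), Car4 (0.67), Id2 (0.65) and Cpne7 (0.62). Prox1 was nearest to Adarb2, Nfix (0.51), Sorcs3 (0.48), Kit and Nfib (0.40 each). Satb1 was nearest to Ntm (0.47), Sst (0.45), Mgat4c (0.41) and Trhde (0.38), and Sox6 to Ntm (0.42) and Cntnap5a (0.35). Nr2f2 was nearest to Kcnd3 (0.44, and 0.34 without set B). The closest gene to Lhx6 was mt-Nd2 (0.35), and that r was 0.10 without set B.

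Between vectors, detection was compared without a test over the 13 labels with at least 10 GABAergic nuclei. Lhx6 ran from 11.1% (DLX2.0) to 72.7% (AiE0391h), with a median of 30.8%. Sox6 ran from 45% (CMV) to 88.2% (AiE0475m), median 65.4%, and Satb1 from 44.4% (DLX2.0) to 76.5% (AiE0475m), median 60%. Adarb2 was 0 of 17 in AiE0475m and highest in hI56i at 29.4% (10 of 34), with a median of 16%. Nr2f2 was highest in hSyn1 at 35.3% and at 0 in 4 labels, and Prox1 highest in AiE0391h at 18.2% and at 0 in 4 labels. AiE0475m had 11 Pvalb-only and 2 marker-negative nuclei, while hI56i had 9 marker-negative nuclei of 34, so class make-up moves with the shares of both labels and its part was not tested. Library set differed between labels as well. All 11 GABAergic nuclei of AiE0391h were from set B and all 17 of AiE0475m from set A, while DLX2.0 had 22 from set A and 5 from set C, hI56i 20 and 14, and hSyn1 5 from set B and 12 from set C. For AiE0391h and AiE0475m vector and library set cannot be told apart, and for the other 3 the part of library set was not tested.

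**Figure D4:**
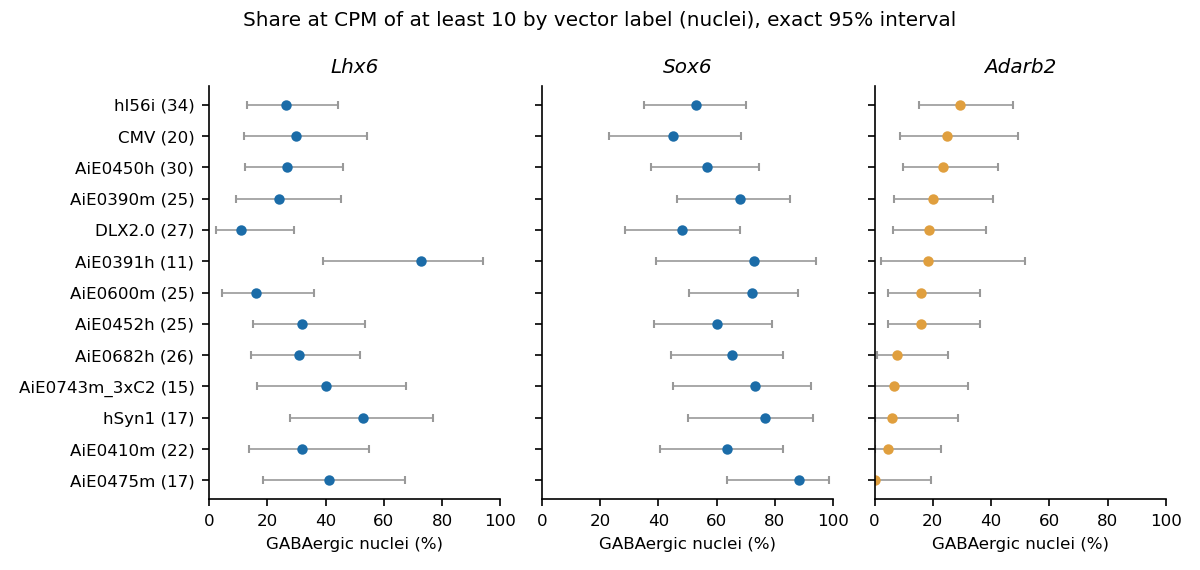
Share of GABAergic nuclei (percent, x axis) with Lhx6, Sox6 or Adarb2 for the 13 vector labels with at least 10 such nuclei (number beside the label), with exact 95% intervals for counting error. Adarb2 ranges from 0 in AiE0475m to 29.4% in hI56i, and Lhx6 from 11.1% in DLX2.0 to 72.7% in AiE0391h.

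Lhx6 was detected in 24.2% of GABAergic nuclei of set A, 60.3% of set B and 21.2% of set C, and after thinning in 22.4%, 56.9% and 21.2%. In Pvalb-only nuclei the shares were 23.3%, 57.1% and 18.2%, and in Sst-only nuclei 32.7%, 86.4% and 41.7%. The sets were compared within the 5 labels with more than 1 GABAergic nucleus in each of sets A and B. The Lhx6 share was higher in set B in 5 of 5 (medians 22.7% and 46.2%). Sox6 was higher there in 4 of 5 labels, Satb1 in 3, Adarb2 in 3, Prox1 in 2 and Nr2f2 in 1. The set B shares of these labels rest on 3 to 13 nuclei each. AiE0447h, with 1 nucleus in set A and 7 in set B, was left out. Nr2f2 was at 3.20%, 17.2% and 9.09% in sets A, B and C, and 10 of its 20 nuclei came from set B. Prox1 was at 3.65%, 12.1% and 9.09%, Sox6 at 59.4%, 75.9% and 57.6%, and Adarb2 at 16.9%, 13.8% and 24.2%. Reads of cytoplasmic genes moved with set B too. The mean level of 4 cytoplasmic genes in GABAergic nuclei was 2.89, 5.15 and 3.39 log2(CPM+1) in sets A, B and C, and its part in the Lhx6 share was not tested. Lhx6 was at 0 in the 98 Slc17a7 nuclei of set B.

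Without set B, 252 GABAergic nuclei were left, of which 60 had Lhx6, 149 Sox6, 140 Satb1, 45 Adarb2, 10 Nr2f2 and 11 Prox1. By edgeR, GABAergic nuclei still stood above Slc17a7 nuclei in Adarb2 (5.64 ± 0.88, adjusted p = 2.67e-06), Sox6 (adjusted p = 3.41e-07) and Lhx6 (adjusted p = 0.000143). Sox6 and Lhx6 were nearly or wholly absent from Slc17a7 nuclei, so the limit given above on their p-values holds here too. Marker-negative nuclei kept the Adarb2 calls against Pvalb-only (5.18 ± 0.79, edgeR adjusted p = 3.43e-07) and Sst-only nuclei (8.11 ± 0.98, edgeR adjusted p = 2.53e-12). They kept the Satb1 calls as well (−3.87 ± 0.74 and −5.08 ± 0.77, edgeR adjusted p = 0.000231 and 1.29e-07). In these nuclei Adarb2 was found in 10 of 11 nuclei with Prox1 and in 1 of 60 with Lhx6, and Sox6 and Satb1 shared 102 nuclei. Nr2f2 then shared 2 of its 10 nuclei with Lhx6, 4 with Sox6, 5 with Satb1 and 4 with Adarb2, so most of its overlap with Lhx6 lay in set B nuclei. Of the 10 set B nuclei with Nr2f2, 4 were of hSyn1 and 3 of AiE0391h, and the parts of set and vector label were not tested.

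**Figure D5:**
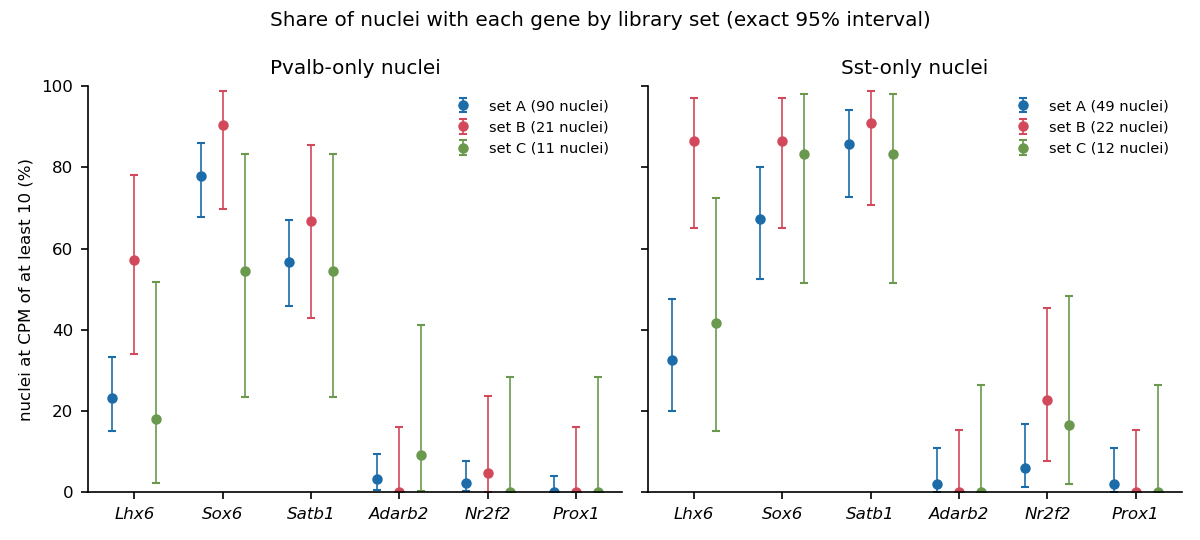
Share of Pvalb-only and of Sst-only nuclei (percent) with each gene in library sets A, B and C, with exact 95% intervals for counting error. Lhx6 is at 57.1% in Pvalb-only and 86.4% in Sst-only nuclei of set B, against 23.3% and 32.7% in set A.

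The strand setting of the counting is not given in the sources used here, so reads of a gene and of an overlapping gene on the other strand cannot be told apart. Prox1os, which overlaps Prox1, had 998 reads in GABAergic nuclei and was detected in 10 of them. B130024G19Rik, which overlaps Nr2f2, had 796 reads. Gm45025 and Sox6os, which overlap Sox6, had 134 and 49 reads.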

How the data were processed

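The labels describe 797 single sorted nuclei, each 1 library. The deposited table holds raw read counts per gene without molecular identifiers, in 32285 gene rows, of which 32158 have a symbol. Rows without one held 0.0931% of reads. Of 2501 columns, 797 match samples of the series and 1704 were not used. Reads were aligned to mm10 with STAR 2.7.2a, per the submitters' processing notes. For the counter, its strand setting and its treatment of introns nothing is stated in the sources used here, and PCR copies cannot be removed from the counts. Kept nuclei had 50565 to 666436 gene reads, so at the median of 292895 reads 1 read is 3.41 CPM and the detection level of 10 CPM is about 3 reads.

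Counts as deposited were divided by each nucleus's gene reads to give CPM. For tests they were summed per vector label and class (at least 2 nuclei) and fitted with edgeR 4.0.16 in R 4.3.3 (TMM, filterByExpr, quasi-likelihood, vector label as a block, Benjamini-Hochberg over all genes tested, threshold 0.05). One fit held the 5 GABAergic classes and Slc17a7 nuclei, and another all GABAergic against Slc17a7 nuclei. In the fit of the 5 classes, enough reads in 1 sum passed the filter, because Vip-only nuclei gave 1 sum. Mean log2(CPM+1) per label was tested for the 6 genes by exact two-sided sign permutation over labels, adjusted over 42 tests. Alternatives included DESeq2 1.42.0, other scalings, filters, thresholds and library sets, thinning to 50000 or 100000 reads, and leaving out each label. Code for the tests was tested on simulated data. No doublet caller was run. The 50 nuclei with Gad and Slc17a7 and the 36 with neither entered no comparison. All 6 genes are named throughout. From each of the 4 lists up to 4 genes by smallest adjusted p are named, and for likeness the 5 genes with the highest r of at least 0.3. Some genes that these rules pick are not reported here. The members and lists were chosen with earlier results of these data known.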

Additional observations from a re-analysis of the deposited data

Results flagged for a closer look

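Some of the 6 genes were detected in nuclei outside the comparisons more often than in Slc17a7 nuclei. In the 50 nuclei with both Gad and Slc17a7 at a CPM of at least 10, Lhx6 was detected in 26% (exact 95% interval 14.6 to 40.3), Sox6 in 42% (28.2 to 56.8), Adarb2 in 18% (8.58 to 31.4) and Prox1 in 10% (3.33 to 21.8). The shares in Slc17a7 nuclei were 0, 0.260%, 1.82% and 0. The median depth of these 50 nuclei was 302992 reads, against 318172 in GABAergic nuclei. In the 36 nuclei with neither, Sox6 was detected in 22.2% (10.1 to 39.2) and Prox1 in 8.33% (1.75 to 22.5), at a median of 270986 reads. Satb1 was not above its share of 43.1% in Slc17a7 nuclei, with 42% of the 50 and 25% of the 36 nuclei, and Adarb2 was found in 0 of the 36. Of those 36 nuclei 16 came from library set B.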

How the results depend on the processing

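Counts of genes called by edgeR moved by over 1.5 times under these alternatives. For GABAergic against Slc17a7 nuclei (1530 in the test as described) they were 2658 with DESeq2, 328 in set A alone, 942 without set B, 882 with sums per label and library set, and 756 with trended dispersion, an alternative added after the data were seen. For Pvalb-only against Vip-only nuclei (20) they were 3043 with DESeq2, 142 with no label block, 4472 with at least 1 nucleus per sum, 12 with at least 4, 7 in set A, 8 without set B and 6 with sums per label and set. For Sst-only against Vip-only nuclei (9) they were 2711, 122 and 2762 with DESeq2, no block and at least 1 nucleus, and 5 with sums per label and set. For Pvalb-only against Sst-only nuclei (510) they were 2129 with DESeq2, 871 with no block, 309 with at least 4 nuclei, 241 in set A and 297 without set B. For marker-negative against Pvalb-only nuclei (577) they were 303 with RLE size factors, 315 with library totals, 3475 with DESeq2, 1010 with no block, 164 with at least 4 nuclei, 162 in set A and 228 without set B. For marker-negative against Sst-only nuclei (384) they were 2975 with DESeq2, 1147 with no block, 153 with at least 4 nuclei, 110 in set A and 155 without set B. For marker-negative against Vip-only nuclei (48) they were 31 with RLE, 29 with library totals, 2510 with DESeq2, 167 with no block, 1408 with at least 1 nucleus, 13 with at least 4, 6 in set A, 4 without set B and 16 with sums per label and set. Leaving out each vector label in turn gave 1383 to 1624, 16 to 27, 7 to 13, 415 to 501, 370 to 556, 297 to 418 and 33 to 59 calls in that order. The 370 was without AiE0390m, and without AiE0450h no Vip-only sum was left. Set A alone and sets without B hold fewer nuclei, and the cause of the other shifts was not tested.

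For the 6 genes, 1248 of the values in a comparison under an alternative kept their side of the threshold. Changes of sign between values not called were counted among these. A further 37 passed the threshold only under the alternative and 35 only in the test as described. Changes of sign with a call in either were 0. Values of a gene that did not pass the filter under an alternative were not counted. AiE0078h, AiE0140h, AiE0387m, AiE0401h and AiE0445h_3xC2 had no sum in any of the 5 GABAergic classes. Leaving these labels out could hardly move comparisons between those classes, so the count of kept values is no measure of stability. With at least 1 nucleus per sum Lhx6 did not pass the filter in GABAergic against Slc17a7 nuclei. Of shares by class, 200 stayed within their interval and 16 did not. No paired analysis was possible because the replicate numbers in the titles only name nuclei within a vector label; pairing by vector label is part of the test as described, as its block. With each nucleus thinned to 50000 reads, shares in GABAergic nuclei went from 30.6% to 28.7% for Lhx6, from 62.3% to 60.3% for Sox6 and from 6.45% to 5.48% for Nr2f2, and stayed at 5.81% for Prox1.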
